A study of Homo sapiens with 5 samples.

Results

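Replication-dependent histone genes supply the histones that package newly copied DNA. The members described here are the rows of the deposited table whose symbol starts with HIST1H, HIST2H, HIST3H or HIST4H. Symbols that contain PS, which mark pseudogenes, were left out. Of 89 such rows, 13 were left out, all of them listed at 0, and 76 members remained among 57773 genes. By class there were 6 genes of the linker histone H1 and 17 of H2A, 23 of H2B, 15 of H3 and 15 of H4, the 4 core histones.

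The cells were HCT116, an established line from a human colorectal carcinoma, made deficient in Dicer by knockout. Dicer cuts mature microRNAs out of their precursors. All 5 libraries share the Dicer knockout, and 1 library each came from cells given methylated let-7a (labelled 19A), native let-7a, methylated miR-17 (labelled 13A), native miR-17 or a negative control. The labels give neither the knockout clone, the kind of methyl group, the dose nor the time after transfection. The series asks how methylated microRNAs act on the degradation of target mRNAs. DICER1 itself had 12.5 TPM with methylated let-7a, 11.2 TPM with native let-7a, 12.9 TPM with methylated miR-17, 15.9 TPM with native miR-17 and 15.4 TPM in the control. Without Dicer-proficient cells to compare with, DICER1 mRNA cannot serve as a check of the knockout. TPM is a read number divided by transcript length and scaled to a fixed library total, so levels can be set beside each other between genes.

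With 1 library in each group, differences have no replicate check and carry no p-value or SD. Differences are of log2(TPM + 1), first library minus second, and adding 1 shrinks the differences of genes at low levels. A member was counted as apart at a 2-fold difference in TPM + 1, which is a rule of size and not a test. The depth of the libraries is unknown, because TPM rounded to 1 decimal does not keep read numbers. All 4 microRNA libraries were set against the same control library. A different control value would therefore shift all 4 differences of a gene together. Of the 10 epithelial markers of the cell line, 6 had a mean of at least 1 TPM, with KRT8 between 1902.3 and 2910.4 TPM, KRT19 between 2708.7 and 3109.4 TPM, CLDN7 between 272.5 and 335.2 TPM and CDH1 between 60.5 and 76.0 TPM, while CEACAM5, VIL1 and CDX1 were listed at 0 in every library and CEACAM6 at 0 in 4 of 5. The summed level of all 10 was 7482.5 TPM with methylated let-7a, 7895.2 TPM with native let-7a, 9117.9 TPM with methylated miR-17, 8823.6 TPM with native miR-17 and 7550.2 TPM in the control. Of 14 blood, endothelial and fibroblast markers found, 3 had a mean of at least 1 TPM, namely COL1A1 (10.8 to 16.3 TPM), ACTA2 (2.7 to 5.0 TPM) and CD68 (1.6 to 4.2 TPM), and the sum of all 14 lay between 20.1 and 25.9 TPM. The epithelial sum was thus highest in the miR-17 libraries, as were KRT8 and KRT18 (1666.2 to 2336.1 TPM), while KRT19 was highest in the control. The part of this sum in the histone values was not tested.

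Replication-dependent histone mRNAs are the class of animal mRNA that normally ends in a conserved stem-loop in place of a poly(A) tail. The stem-loop is bound by SLBP, cut free by a machinery that contains the U7 small nuclear RNA, and read again when the mRNA is degraded at the end of S phase. Their genes lie in clusters, carry few or no introns, and are transcribed in S phase with NPAT as a shared coactivator. Some of them also give spliced or polyadenylated transcripts in cells that have left the cycle. In the files, 55 members belong to the HIST1 cluster, 16 to HIST2, 4 to HIST3 and 1 to HIST4, and the 71 matched to RefSeq lie on human chromosomes 6, 1 and 12.

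The 2 transfected microRNAs are shown first, because their seeds (bases 2 to 8, in capitals) set which mRNAs they pair with. Both sequences are RefSeq's, annotated on GRCh38.p14. RefSeq lists hsa-let-7a-5p at 3 loci, on chromosomes 9, 11 and 22, and the first of them is chr9:94175962-94175983 on the plus strand. For hsa-miR-17-5p the locus is chr13:91350618-91350640 on the plus strand. The 2 seeds differ. The labels do not give the transfected oligonucleotides themselves. Counting from the 5′ end, base 19 of let-7a-5p and base 13 of miR-17-5p are both A.
hsa-let-7a-5p: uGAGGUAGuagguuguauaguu
hsa-miR-17-5p: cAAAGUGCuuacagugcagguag

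Few members hold a match to either seed in their 3′ untranslated region. Of 35 members with an annotated 3′ untranslated region of at least 50 bases in GENCODE 29 (a GRCh38 annotation, used for sequence), 2 had a let-7a seed match and 3 had a miR-17 seed match. The let-7a matches were in HIST1H3G, listed at 0 in every library, and HIST2H2BF, with a mean of 0.9 TPM. The miR-17 matches were in HIST1H2AG, HIST1H2BG and HIST1H2BN. HIST1H2AG, an H2A gene, had 4.4 TPM with methylated miR-17 and 4.0 TPM with native miR-17, against 4.1 TPM in the control. HIST1H2BN, an H2B gene, had 2.1 TPM with methylated miR-17 and 1.4 TPM with native miR-17, against 1.2 TPM in the control. HIST1H2BG had 0.5 TPM with native let-7a and was listed at 0 in the other 4 libraries.

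The stem-loop, the mark of this gene class, was searched in the GENCODE 29 transcripts of the members and found in 35 of 76. The 6 versions found are written 5′ to 3′ as DNA, with the paired stem in capitals and the loop in lower case. All 8 H4 genes with a match carried a stem not found in the H2A, H2B and H3 genes. The version most often found was held by 18 members, and the H4 versions by 5 and 3.
HIST1H2AC, HIST2H2AA4, HIST3H2A, HIST2H2BE and others (18 members): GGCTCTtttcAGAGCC
HIST1H2BC, HIST1H2BD, HIST1H3G and others (5 members): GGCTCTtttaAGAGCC
HIST1H3E (1 member): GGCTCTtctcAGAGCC
HIST1H2AG, HIST2H2BC and HIST2H2BD (3 members): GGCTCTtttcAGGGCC
HIST1H4J, HIST1H4E, HIST1H4B and others (5 members): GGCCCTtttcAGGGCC
HIST2H4A, HIST2H4B and HIST1H4I (3 members): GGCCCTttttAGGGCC

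The other 41 members had no match in a GENCODE 29 transcript, among them HIST1H2BK and HIST1H1C. Many of these transcripts stop at or near the end of the coding sequence, so that a missing match says only that the annotated transcript does not contain these letters. Of the 35 members with a stem-loop, 25 had an annotated transcript that went on for at least 100 bases beyond it, such as HIST1H2AC with 1128 bases. Their median level over members was 1.04 TPM, against 0.66 TPM for the 10 members with fewer bases after it.

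A second sequence feature is the upstream region. Of the 76 members, 61 were matched to a RefSeq promoter table (GRCh38.p14), from which the 250 bases before the start were searched on both strands for 3 motifs. These were CCAAT, which the factor NF-Y binds, the TATA box as TATAAA, and the octamer that the transcription factor POU2F1 (OCT1) binds in histone H2B promoters, as ATTTGCAT. CCAAT was found in 51 of 61 member windows (83.6%), against 33.0% of all 27305 windows of the table. TATAAA was found in 40 (65.6%, against 11.1%) and ATTTGCAT in 26 (42.6%, against 1.66%). Matches of different motifs may overlap. By class, CCAAT was in every window of the 6 H1, 14 H2A, 18 H2B and 10 H3 genes and in 3 of 13 H4 windows, and ATTTGCAT was in 11 of 14 H2A and 14 of 18 H2B windows, against 1 of 10 H3, 0 of 6 H1 and 0 of 13 H4 windows. The windows of 4 members are printed with matches in capitals. They are HIST1H2BK, with the highest level of all members, HIST1H2AC, the highest H2A gene, and the H4 genes HIST1H4J and HIST1H4K, whose levels swapped between libraries.
HIST1H2BK promoter, chr6:27146859-27147108, minus strand: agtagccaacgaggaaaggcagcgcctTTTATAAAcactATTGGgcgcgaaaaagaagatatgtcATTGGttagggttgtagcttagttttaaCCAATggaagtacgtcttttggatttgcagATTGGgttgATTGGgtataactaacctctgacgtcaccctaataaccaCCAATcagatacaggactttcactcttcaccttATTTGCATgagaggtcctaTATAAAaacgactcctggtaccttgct
HIST1H2AC promoter, chr6:26123922-26124171, plus strand: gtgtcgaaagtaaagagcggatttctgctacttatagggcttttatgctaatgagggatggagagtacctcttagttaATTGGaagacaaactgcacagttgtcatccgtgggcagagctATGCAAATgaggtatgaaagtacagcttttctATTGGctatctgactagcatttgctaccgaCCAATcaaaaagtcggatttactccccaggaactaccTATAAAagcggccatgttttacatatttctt
HIST1H4J promoter, chr6:27823842-27824091, plus strand: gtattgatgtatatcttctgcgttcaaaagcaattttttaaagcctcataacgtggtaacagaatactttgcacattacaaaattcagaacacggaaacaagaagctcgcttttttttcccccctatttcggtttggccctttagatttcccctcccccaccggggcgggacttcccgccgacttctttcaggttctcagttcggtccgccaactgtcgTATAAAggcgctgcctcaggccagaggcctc
HIST1H4K promoter, chr6:27831561-27831810, minus strand: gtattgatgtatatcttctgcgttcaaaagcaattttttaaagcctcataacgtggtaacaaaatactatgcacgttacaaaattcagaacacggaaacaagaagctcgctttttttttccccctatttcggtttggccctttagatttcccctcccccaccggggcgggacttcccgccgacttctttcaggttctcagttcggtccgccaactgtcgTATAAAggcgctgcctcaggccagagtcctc

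Median levels of members with and without a motif were close. Members with ATTTGCAT had a median of 0.67 TPM, against 0.7 TPM without it. For TATAAA the medians were 0.71 TPM with and 0.62 TPM without it, and for CCAAT 0.62 TPM with and 0.87 TPM without it. The 10 windows without CCAAT all belong to H4 genes, whose highest mean was 7.56 TPM, while the highest mean with CCAAT was 146.3 TPM. The HIST1H2AC window shares 245 of its 250 bases with that of HIST1H2BC, an H2B gene transcribed the other way, yet HIST1H2AC averaged 97.3 TPM over the 5 libraries and HIST1H2BC 8.02 TPM. The windows of HIST1H4J and HIST1H4K are the same at 245 of 250 positions and differ at 5.

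Most members were low, and the level of the family rested on few genes. Of the 76 members, 23 were listed at 0 in every library, 25 more had a mean below 1 TPM, 28 had a mean of at least 1 TPM, 14 of at least 5 TPM and 6 of at least 20 TPM. These 6 were HIST1H2BK, HIST1H2BD, HIST1H2AC, HIST1H1C, HIST3H2A and HIST2H2AA4, and together they held 78.7% of the members' TPM with methylated let-7a, 82.3% with native let-7a, 85.0% with methylated miR-17, 83.5% with native miR-17 and 84.2% in the control. By class, 1 of 6 H1, 9 of 17 H2A, 7 of 23 H2B, 5 of 15 H3 and 6 of 15 H4 genes reached a mean of 1 TPM. The testis H1 gene HIST1H1T reached at most 0.3 TPM, and HIST1H2AA, HIST1H2BA and HIST3H3, also known from testis, were listed at 0. Of 6 members that GENCODE 29 calls pseudogenes, 4 were listed at 0 and the highest mean was 0.72 TPM.

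Median level differed by annotation. The 6 members with at least 2 RefSeq mRNAs had a median of 9.34 TPM, against 0.42 TPM for the 60 members with 1. The 8 coding members whose RefSeq span is at least 1000 bases, which takes in an intron or a long 3′ end, had a median of 7.93 TPM, against 0.39 TPM for 58 shorter ones. HIST1H2BK spans 8566 bases in RefSeq and HIST1H2BD spans 13229, but HIST1H2AC, HIST1H1C and HIST3H2A, with spans of 519, 731 and 510 bases and 1 mRNA each, were also among the 6 highest members. HIST2H2BF, with a span of 29682 bases and 2 mRNAs, averaged 0.9 TPM. The libraries were made as stranded total RNA with ribosomal RNA removal, per the labels, and several RNAs without a poly(A) tail were nonetheless listed at 0 in every library. These were RN7SK, RN7SL1, RN7SL2, RMRP, RPPH1 and TERC, and all 1803 small nuclear and 866 small nucleolar RNA identifiers. The nuclear RNAs MALAT1 and NEAT1 were above 0, at 9.1 to 19.4 TPM and 24.5 to 49.8 TPM. What part the library preparation or the counting has in the low level of most members was not tested.

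**Figure D1:**
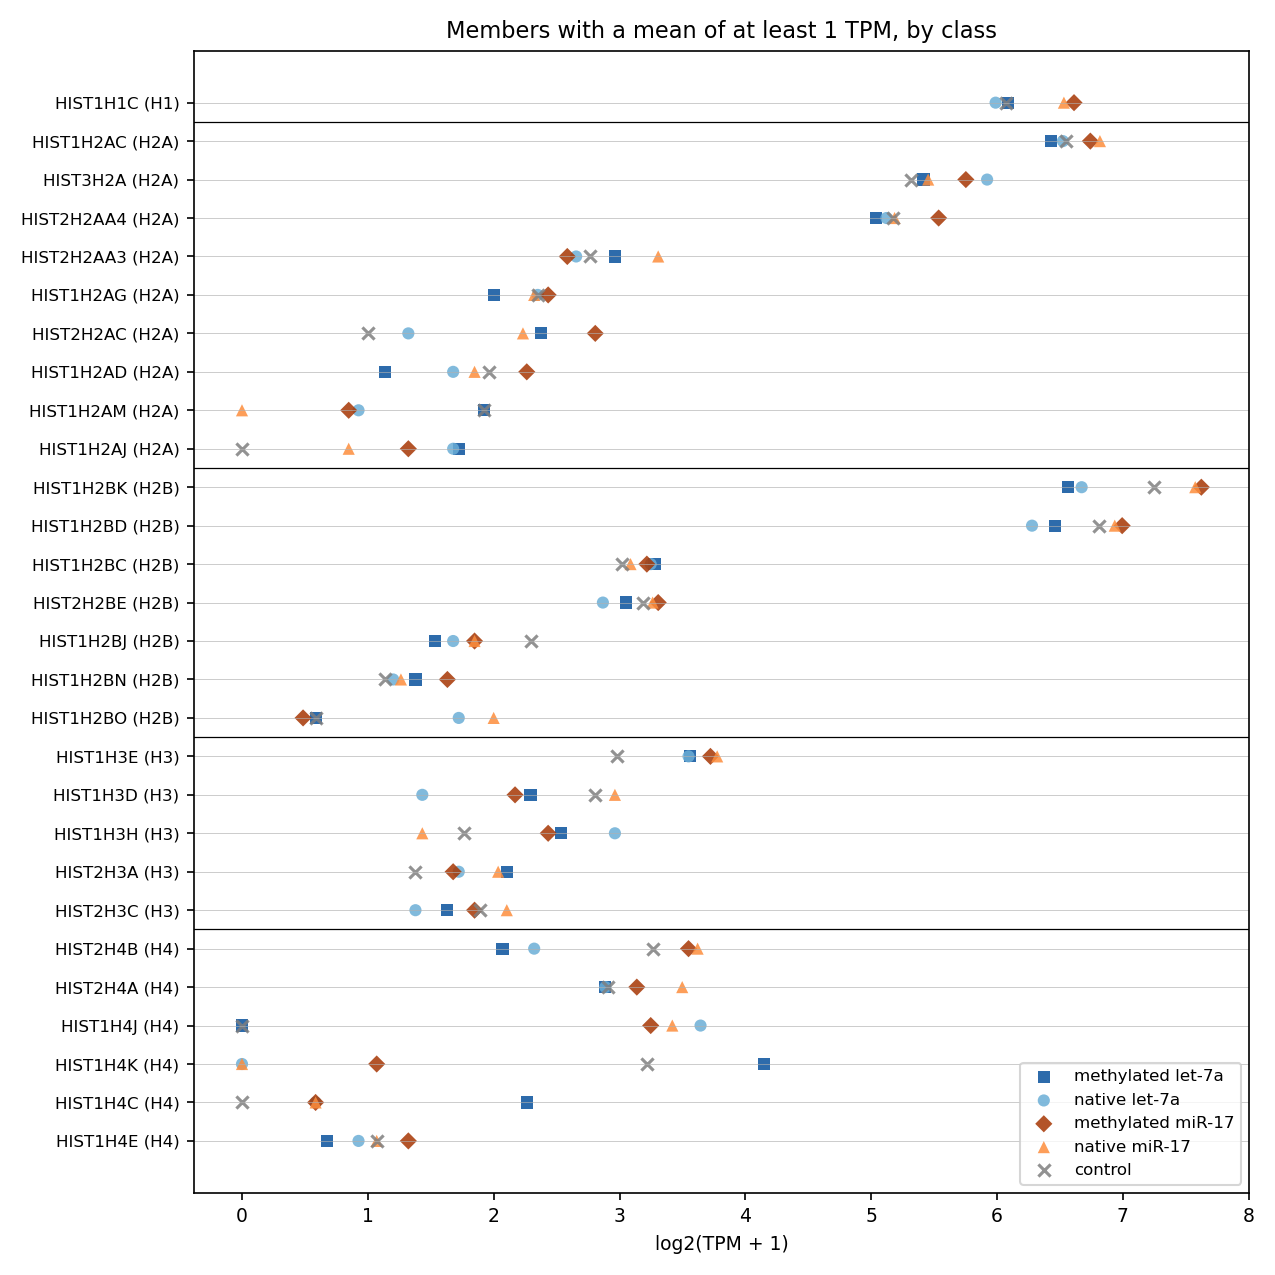
Level as log2(TPM + 1) in each of the 5 libraries (one marker per library) for the 28 members with a mean of at least 1 TPM, ordered by class and then by mean. HIST1H2BK, HIST1H2BD, HIST1H2AC and HIST1H1C stand above the rest, and HIST1H4J and HIST1H4K reach 0 in some libraries.

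Summed over all members, the miR-17 libraries were above the control and the let-7a libraries below it. The sum was 516.2 TPM with methylated let-7a, 515.7 TPM with native let-7a, 734.1 TPM with methylated miR-17, 709.3 TPM with native miR-17 and 587.9 TPM in the control. Relative to the control, methylated let-7a was at 0.878 times, native let-7a at 0.877 times, methylated miR-17 at 1.25 times and native miR-17 at 1.21 times. The methylated and native forms were close, at 1.00 times for let-7a and 1.03 times for miR-17. By class, only H2B had a sum below the control in both let-7a libraries, and the lower total there came from H2B. In a bulk sample, more cells in S phase and more histone mRNA per cell cannot be told apart. A class sum depends less than its single genes on how reads were shared among near-identical members. It still shifts where the copies differ in length, since TPM divides by length, and where reads were exchanged with genes outside the class.

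**Figure D2:**
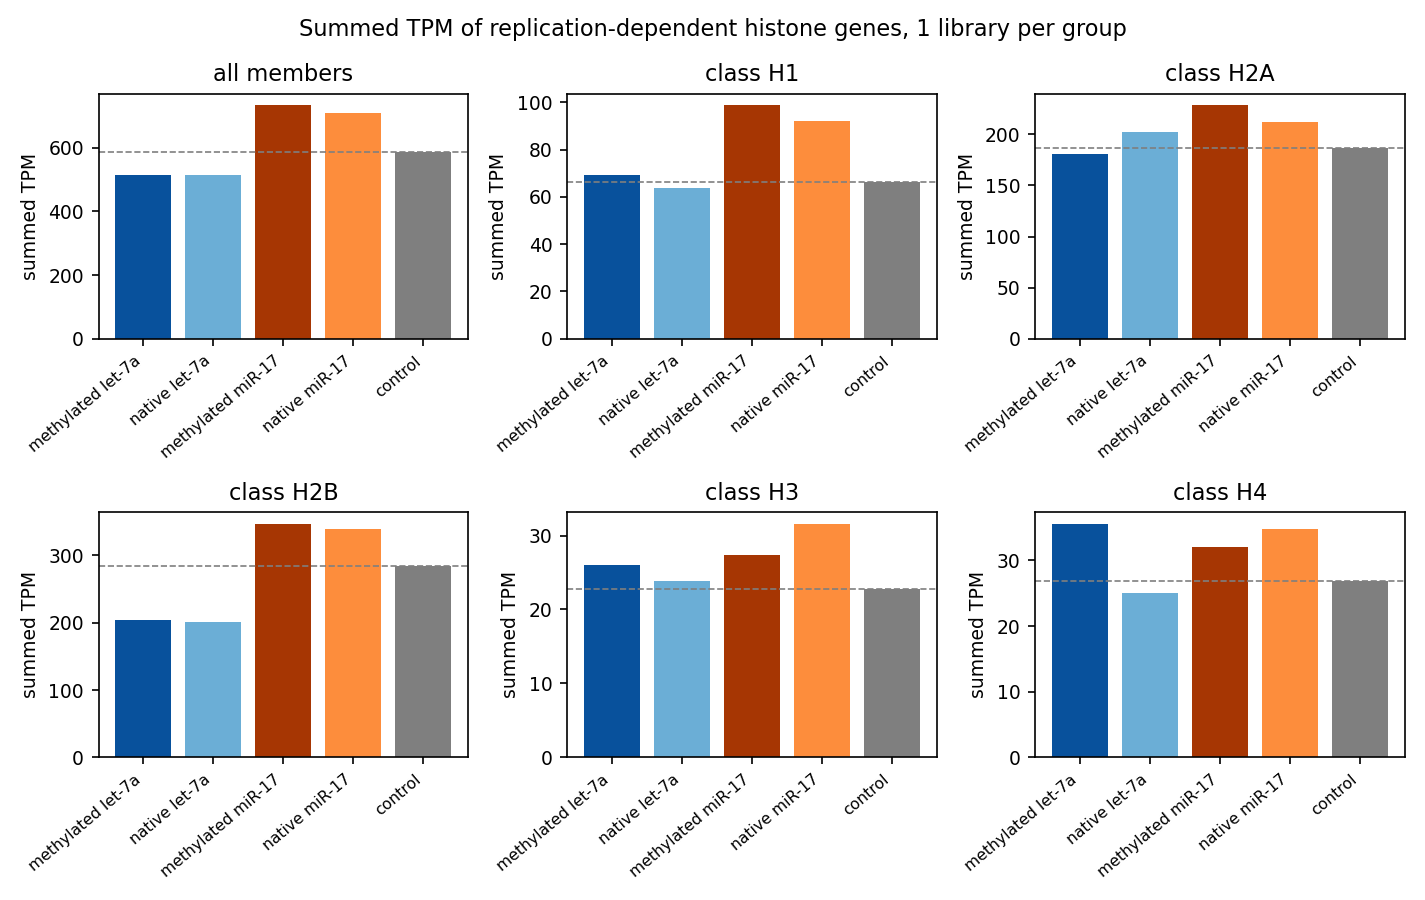
Summed TPM of all members and of each histone class in the 5 libraries (1 bar per library, no replicates); the dashed line is the control. All members together and H2B are higher than the control in both miR-17 libraries and lower in both let-7a libraries.

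Linker histone H1, which binds between nucleosomes, was almost entirely HIST1H1C, the gene of histone H1.2. HIST1H1C had 67.1 TPM with methylated let-7a, 62.5 TPM with native let-7a, 96.8 TPM with methylated miR-17, 91.5 TPM with native miR-17 and 66.2 TPM in the control. Both miR-17 libraries were above the other 3, with differences of 0.54 and 0.46 from the control for methylated and native miR-17, and both let-7a libraries were near the control, at 0.02 and -0.08. HIST1H1C held between 96.7% and 99.5% of H1 TPM per library. HIST1H1E, the gene of H1.4, had 2.0 TPM with methylated let-7a, 1.1 TPM with native let-7a, 1.2 TPM with methylated miR-17 and 0.3 TPM in the control, and was listed at 0 with native miR-17. HIST1H1D reached 0.5 TPM in both miR-17 libraries and was listed at 0 elsewhere, and HIST1H1A and HIST1H1B were listed at 0 in all.

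The H2A sum was 181.3 TPM with methylated let-7a, 202.4 TPM with native let-7a, 228.6 TPM with methylated miR-17, 211.7 TPM with native miR-17 and 187.1 TPM in the control. HIST1H2AC, which held between 45.0% and 52.8% of it, had 85.0 TPM with methylated let-7a, 91.0 TPM with native let-7a, 106.0 TPM with methylated miR-17, 111.8 TPM with native miR-17 and 92.7 TPM in the control. Its miR-17 values were the 2 highest, and its differences from the control stayed between -0.12 and 0.27. HIST3H2A, the H2A gene of the HIST3 cluster, went another way. It had 41.7 TPM with methylated let-7a, 59.6 TPM with native let-7a, 52.9 TPM with methylated miR-17, 42.8 TPM with native miR-17 and 38.8 TPM in the control. Its methylated form was lower than the native one for let-7a (-0.51) and higher for miR-17 (0.30). HIST2H2AA4 had 31.9 TPM with methylated let-7a, 33.8 TPM with native let-7a, 45.4 TPM with methylated miR-17, 35.4 TPM with native miR-17 and 35.0 TPM in the control. Its near-identical copy HIST2H2AA3 had 6.8 and 5.3 TPM with methylated and native let-7a, 5.0 and 8.9 TPM with methylated and native miR-17, and 5.8 TPM in the control, and the split between the 2 is uncertain. Their annotated transcripts share 100% of HIST2H2AA3's 50-base stretches, and the identifier that the table gives HIST2H2AA4 carries the name HIST2H2AA3 in GENCODE 29.

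In H2B the summed levels of the 2 microRNAs were apart, with the control between them. Most of the H2B sum came from HIST1H2BK and HIST1H2BD. The H2B sum was 203.9 TPM with methylated let-7a, 200.7 TPM with native let-7a, 347.3 TPM with methylated miR-17, 339.2 TPM with native miR-17 and 284.7 TPM in the control. That is 0.716 and 0.705 times the control for the let-7a libraries and 1.22 and 1.19 times for the miR-17 libraries. HIST1H2BK, the highest member, had 93.8 TPM with methylated let-7a, 101.0 TPM with native let-7a, 196.2 TPM with methylated miR-17, 189.7 TPM with native miR-17 and 150.7 TPM in the control. Its let-7a libraries were the lowest and its miR-17 libraries the highest, a span of 2.09-fold. HIST1H2BD had 86.9 TPM with methylated let-7a, 76.6 TPM with native let-7a, 126.5 TPM with methylated miR-17, 121.4 TPM with native miR-17 and 111.4 TPM in the control. Its order of libraries was alike, with differences from the control of -0.35 and -0.53 for methylated and native let-7a and of 0.18 and 0.12 for methylated and native miR-17.

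The next H2B genes were far lower. HIST1H2BC had 8.7 TPM with methylated let-7a, 8.5 TPM with native let-7a, 8.3 TPM with methylated miR-17, 7.5 TPM with native miR-17 and 7.1 TPM in the control. HIST2H2BE, an H2B gene of the HIST2 cluster, had 7.3 TPM with methylated let-7a, 6.3 TPM with native let-7a, 8.9 TPM with methylated miR-17, 8.6 TPM with native miR-17 and 8.1 TPM in the control. Its miR-17 libraries were above and its let-7a libraries below the control, a span of 1.41-fold, while HIST1H2BC spanned 1.23-fold with the control lowest. HIST1H2BK is annotated in GENCODE 29 as coding sequence alone, and 204 of its 332 50-base stretches also occur in H2BFS, a gene listed at 0 in every library. Without HIST1H2BK, a comparison added after the values were seen, the sum over all other members was 0.966 and 0.949 times the control with methylated and native let-7a and 1.23 and 1.19 times with methylated and native miR-17. The H2B sum without it was 0.822 and 0.744 times the control in the let-7a libraries and 1.13 and 1.12 times in the miR-17 libraries. HIST1H2BD remains in that sum, and a sum without both genes was not made.

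H3 levels were low, with a sum of 26.0 TPM with methylated let-7a, 23.9 TPM with native let-7a, 27.4 TPM with methylated miR-17, 31.6 TPM with native miR-17 and 22.7 TPM in the control. HIST1H3E had 10.8 TPM with methylated let-7a, 10.7 TPM with native let-7a, 12.2 TPM with methylated miR-17, 12.7 TPM with native miR-17 and 6.9 TPM in the control. It was above the control in all 4 microRNA libraries, by 0.57 to 0.79. HIST1H3D had 3.9 and 1.7 TPM with methylated and native let-7a, 3.5 and 6.8 TPM with methylated and native miR-17, and 6.0 TPM in the control, and HIST1H3H had 4.8 and 6.8 TPM with methylated and native let-7a, 4.4 and 1.7 TPM with methylated and native miR-17, and 2.4 TPM in the control. These 2 genes were high in different libraries: HIST1H3D in native miR-17 and the control, HIST1H3H in native let-7a. In the annotation used for sequence, HIST1H3D shares its 50-base stretches with AL031777.3, a transcript that also covers HIST1H2AD. AL031777.3 is not among the deposited genes, and whether this sharing affected the HIST1H3D value was not tested. HIST2H3A had 3.3 and 2.3 TPM with methylated and native let-7a, 2.2 and 3.1 TPM with methylated and native miR-17, and 1.6 TPM in the control. Its copy HIST2H3C, which shares 100% of its 50-base stretches, had 2.1 and 1.6 TPM with methylated and native let-7a, 2.6 and 3.3 TPM with methylated and native miR-17, and 2.7 TPM in the control. The pair summed to 5.4 and 3.9 TPM with methylated and native let-7a, 4.8 and 6.4 TPM with methylated and native miR-17, and 4.3 TPM in the control, and the split between the 2 is uncertain.

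The H4 sum was 35.6 TPM with methylated let-7a, 25.1 TPM with native let-7a, 32.0 TPM with methylated miR-17, 34.8 TPM with native miR-17 and 26.9 TPM in the control. In GENCODE 29, 14 of the 15 H4 genes encode 1 identical protein of 103 residues, and HIST1H4G alone differs. Their coding sequences match each other at 79.0% to 100% of bases, with a median over pairs of 83.8%, against 85.6% for H2A, 89.7% for H2B and 85.3% for H3. For comparison, 17 H2A genes encode 11 distinct proteins, 18 H2B genes 14, 14 H3 genes 3 and 6 H1 genes 6. Over 50-base stretches, 18 of the 76 members shared at least 50% of theirs with another gene. In 4 pairs, at least 80% of the 50-base stretches of each gene occurred in the other: HIST1H4J with HIST1H4K, HIST2H2AA3 with HIST2H2AA4, HIST2H3A with HIST2H3C, and HIST2H4A with HIST2H4B.

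HIST1H4J and HIST1H4K gave the members' largest single differences. HIST1H4J was listed at 0 with methylated let-7a and in the control and had 11.5 TPM with native let-7a, 8.5 TPM with methylated miR-17 and 9.7 TPM with native miR-17. HIST1H4K had 16.7 TPM with methylated let-7a, 1.1 TPM with methylated miR-17 and 8.3 TPM in the control and was listed at 0 with native let-7a and native miR-17. In every library 1 of the 2 held at least 88.5% of the pair's TPM. Their sum was 16.7 TPM with methylated let-7a, 11.5 TPM with native let-7a, 9.6 TPM with methylated miR-17, 9.7 TPM with native miR-17 and 8.3 TPM in the control. The summed pair differed from the control by 0.93 with methylated let-7a and by 0.19 to 0.43 in the other 3, below 2-fold in each. The longest annotated transcripts are 373 bases for HIST1H4J and 312 bases for HIST1H4K, so this sum also moves with which gene took the reads. HIST2H4B had 3.2 TPM with methylated let-7a, 4.0 TPM with native let-7a, 10.7 TPM with methylated miR-17, 11.3 TPM with native miR-17 and 8.6 TPM in the control, and its copy HIST2H4A had 6.4 and 6.4 TPM with methylated and native let-7a, 7.8 and 10.3 TPM with methylated and native miR-17, and 6.5 TPM in the control. Their sum was 9.6 and 10.4 TPM with methylated and native let-7a, 18.5 and 21.6 TPM with methylated and native miR-17 and 15.1 TPM in the control, so the pair as a whole was low with let-7a and high with miR-17.

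**Figure D3:**
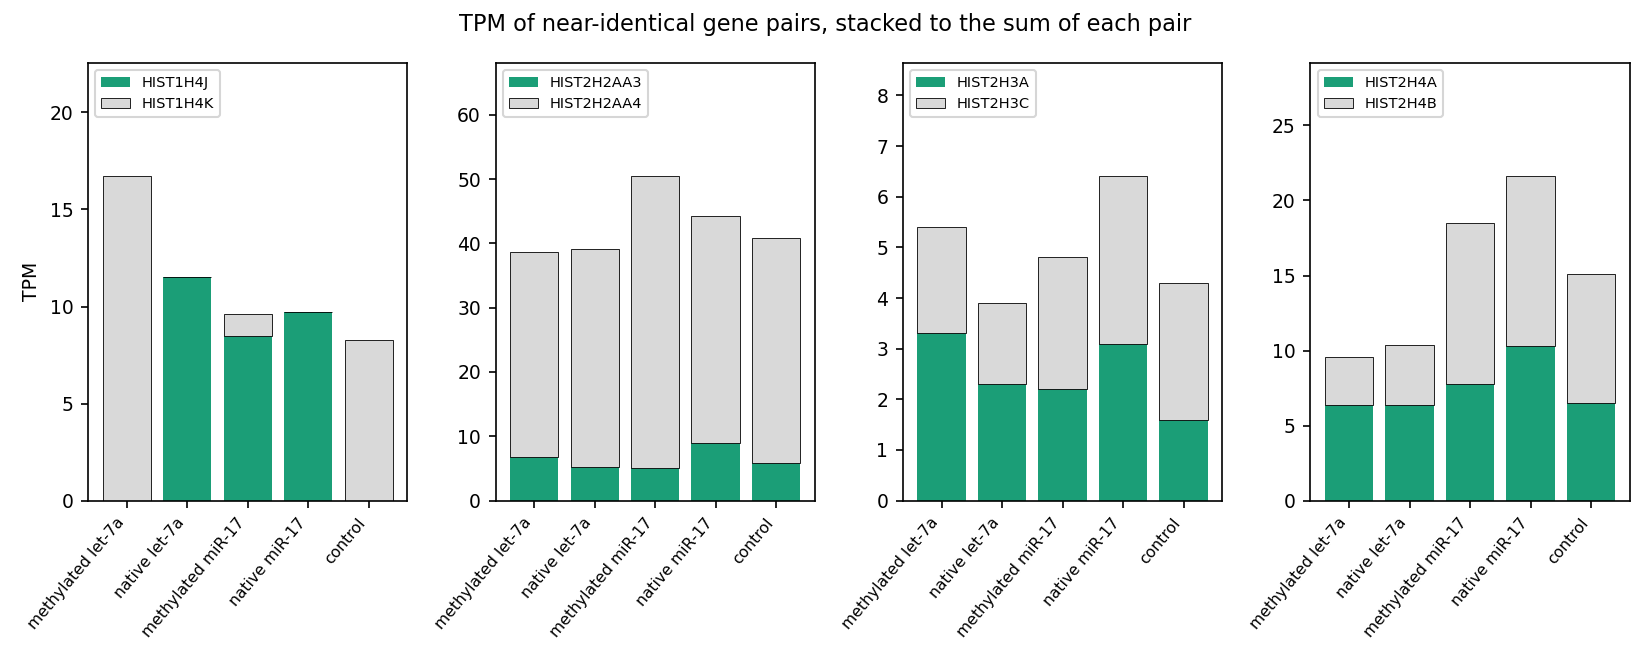
TPM of the 4 near-identical pairs in the 5 libraries, stacked so that the bar's height is the pair's sum. The HIST1H4J and HIST1H4K bars change from one gene to the other between libraries, and the HIST2H4A and HIST2H4B sum is lowest in both let-7a libraries.

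With methylated let-7a against the control, among the 28 members that averaged 1 TPM or more, 12 were higher and 13 lower, with a median difference of 0.00, against -0.04 over all 14180 genes with that mean. Over all genes, 41.0% were higher. HIST1H4C, HIST1H2AJ and HIST2H2AC were at least 2-fold higher (1.18% of all genes) and HIST2H4B at least 2-fold lower (0.987%). HIST1H4C had 3.8 TPM with methylated let-7a and was listed at 0 in the control, with 0.5 TPM in each of the other 3 libraries. HIST1H2AD, the second lowest, had 1.2 TPM with methylated let-7a against 2.9 TPM in the control. The H3 median was the highest of the classes (0.58) and the H2B median the lowest (-0.13).

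With native let-7a against the control, 11 members were higher and 16 lower, and the median was -0.04, against 0.00 over all genes, of which 49.9% were higher. The members at least 2-fold higher were HIST1H4J, HIST1H2AJ, HIST1H3H and HIST1H2BO (1.23% of all genes), and those at least 2-fold lower were HIST1H4K, HIST1H3D and HIST1H2AM (1.18%). HIST1H2AJ had 2.3 TPM with methylated let-7a, 2.2 TPM with native let-7a, 1.5 TPM with methylated miR-17 and 0.8 TPM with native miR-17 and was listed at 0 in the control. It shares 83.7% of its 50-base stretches, all with HIST1H2AI, which had 0.9 and 0.4 TPM with methylated and native let-7a, 0.0 and 0.4 TPM with methylated and native miR-17, and 3.0 TPM in the control. HIST1H3D had 1.7 TPM with native let-7a against 6.0 TPM in the control. By class, the median was lowest for H2B (-0.32) and highest for H3 (0.34).

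With methylated miR-17 against the control, 21 members were higher and 7 lower. Over all genes, 42.1% were higher, and the median was 0.27 for members against -0.06 for all genes. HIST1H4J, HIST2H2AC and HIST1H2AJ were at least 2-fold higher (1.32% of all genes), and HIST1H4K and HIST1H2AM at least 2-fold lower (2.40%). HIST2H2AC, an H2A gene, had 4.2 TPM with methylated let-7a, 1.5 TPM with native let-7a, 6.0 TPM with methylated miR-17, 3.7 TPM with native miR-17 and 1.0 TPM in the control. HIST1H2AM had 2.8 and 0.9 TPM with methylated and native let-7a, 0.8 and 0.0 TPM with methylated and native miR-17, and 2.8 TPM in the control, and its annotated exons overlap those of HIST1H3J on the same strand. Each class had a median above 0, between 0.18 for H2B and 0.54 for the single H1 gene.

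With native miR-17 against the control, 21 members were again higher, 6 were lower and 1 was equal. The median was 0.19, against 0.02 over all genes, of which 51.5% were higher. HIST1H4J, HIST1H2BO and HIST2H2AC were at least 2-fold higher (1.69% of all genes), and HIST1H4K and HIST1H2AM at least 2-fold lower (1.73%). HIST1H2BO had 0.5 TPM with methylated let-7a, 2.3 TPM with native let-7a, 0.4 TPM with methylated miR-17, 3.0 TPM with native miR-17 and 0.5 TPM in the control, so both native forms were above both methylated forms. None of the 6 members above a mean of 20 TPM was 2-fold apart from the control in any library.

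**Figure D4:**
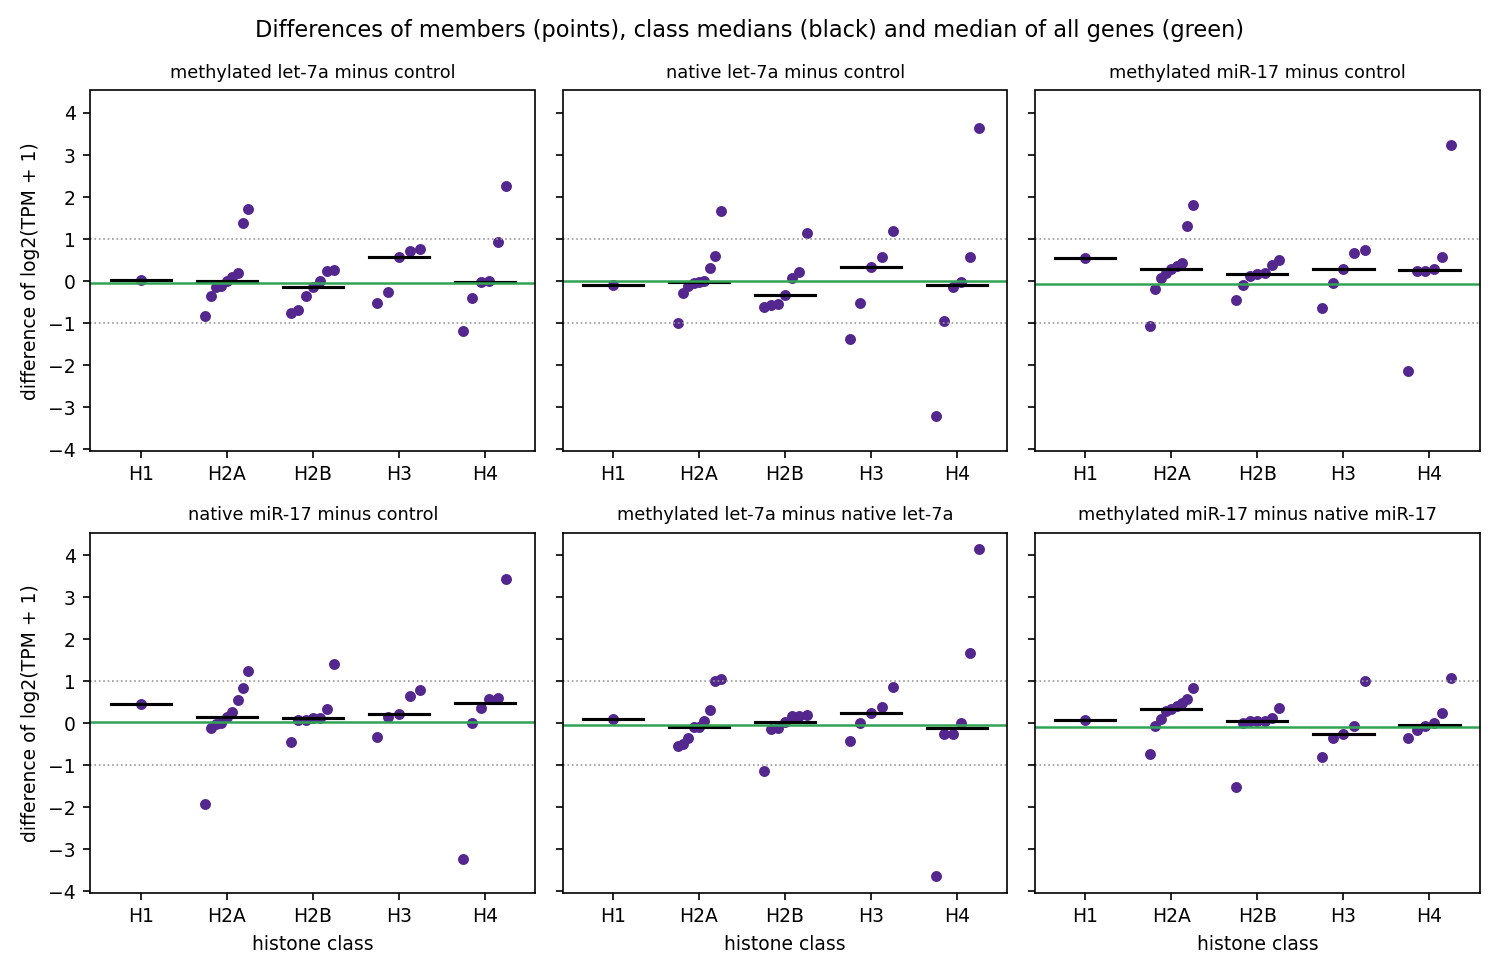
Difference of log2(TPM + 1) for each member with a mean of at least 1 TPM (points) by class in the 6 comparisons, with the class median (black) and the median of all 14180 genes (green); dotted lines mark 2-fold. Most points of the miR-17 comparisons with the control lie above the green line, and the largest differences in 5 of the 6 comparisons belong to class H4.

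Between the chemical forms, methylated let-7a had 15 members higher than native let-7a and 12 lower, with a median of 0.02 against -0.03 over all genes, of which 39.8% were higher. HIST1H4K, HIST1H4C, HIST2H2AC and HIST1H2AM were at least 2-fold higher with methylated let-7a (0.952% of all genes), and HIST1H4J and HIST1H2BO at least 2-fold lower (0.980%). Methylated miR-17 had 16 members higher than native miR-17 and 10 lower, with a median of 0.05 against -0.09 over all genes, of which 28.4% were higher. HIST1H4K and HIST1H3H were at least 2-fold higher with methylated miR-17 (0.684% of all genes) and HIST1H2BO at least 2-fold lower (0.994%). HIST1H3D, the second lowest, had 3.5 TPM with methylated miR-17 and 6.8 TPM with native miR-17. HIST1H2BK, HIST1H2BD, HIST1H2AC and HIST1H1C, the 4 highest members, differed between the forms by at most 0.18.

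The members were also counted by the order of all 5 libraries, patterns chosen after the values were seen. Both miR-17 libraries were above the other 3 for 9 of 28 members (32.1%, against 20.8% of all genes), and below the other 3 for 1 member, HIST1H2AM (3.57%, against 24.0%). The 9 were HIST1H1C, HIST1H2AC, HIST1H2BD, HIST1H2BK, HIST1H3E, HIST2H2AA4, HIST2H2BE, HIST2H4A and HIST2H4B, and they come from each of the 5 classes. The control lay between the microRNAs, below both miR-17 and above both let-7a libraries, for 7 members (25.0%, against 6.80%). These were the 9 without HIST1H1C and HIST1H3E. The near-identical copies HIST2H4A and HIST2H4B were counted separately in both patterns. Some margins were small, with HIST2H4A at 6.4 TPM in both let-7a libraries against 6.5 TPM in the control. HIST2H2AA4 had 35.4 TPM with native miR-17 against 35.0 TPM in the control. Of the 28 members, 14 had a mean below 5 TPM and 5 were listed at 0 in at least 1 library.

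Genes known to act on histone mRNA were read beside the members. Of 13 genes of histone transcription, 10 were lower than the control with methylated miR-17 and 9 with native miR-17, with medians of -0.29 and -0.23. Over all genes the medians were -0.06 and 0.02, and 3 and 4 of the 13 were higher, against 42.1% and 51.5% of all genes. With methylated and native let-7a, 12 and 9 of the 13 were lower, with medians of -0.14 and -0.19, against -0.04 and 0.00 for all genes. Higher there were 1 and 4 of the 13, against 41.0% and 49.9% of all genes. NPAT, the coactivator of histone genes, had 8.4 TPM with methylated let-7a, 7.9 TPM with native let-7a, 6.4 TPM with methylated miR-17, 5.9 TPM with native miR-17 and 8.7 TPM in the control, and was lowest in the miR-17 libraries. CASP8AP2, a partner of NPAT, had 6.7 and 6.8 TPM with methylated and native let-7a, 6.1 and 6.4 TPM with methylated and native miR-17, and 8.7 TPM in the control. CCNE2, a cyclin E gene, had 2.1 and 2.3 TPM with methylated and native let-7a, 2.9 and 2.5 TPM with methylated and native miR-17, and 4.7 TPM in the control, highest in the control, while CCNE1 had 15.1 and 18.1 TPM with methylated and native let-7a, 18.6 and 17.4 TPM with methylated and native miR-17, and 16.6 TPM in the control. NFYA, a subunit of the factor that binds CCAAT, had 36.6 and 37.9 TPM with methylated and native let-7a, 41.8 and 53.1 TPM with methylated and native miR-17, and 41.2 TPM in the control, highest with native miR-17.

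Of 17 genes of histone 3′ end processing, 8 were higher with methylated let-7a, 9 with native let-7a, 11 with methylated miR-17 and 15 with native miR-17, and none was 2-fold apart. In the same order of libraries, 41.0%, 49.9%, 42.1% and 51.5% of all genes were higher. SLBP, the stem-loop binding protein, had 97.8 TPM with methylated let-7a, 92.8 TPM with native let-7a, 90.9 TPM with methylated miR-17, 96.8 TPM with native miR-17 and 104.6 TPM in the control, so it was below the control in all 4. CPSF1, a subunit of the cleavage complex, had 72.6 and 72.8 TPM with methylated and native let-7a, 91.1 and 94.2 TPM with methylated and native miR-17, and 90.6 TPM in the control. SNRPF and SNRPG, Sm proteins of small nuclear ribonucleoproteins, were above the control in all 4. SNRPG had 115.3 and 127.0 TPM with methylated and native let-7a, 139.8 and 128.5 TPM with methylated and native miR-17, and 104.1 TPM in the control. SNRPF had 47.1 and 46.3 TPM with methylated and native let-7a, 56.3 and 48.9 TPM with methylated and native miR-17, and 41.8 TPM in the control. Of 15 genes of histone mRNA decay and translation, 6 and 7 were higher than the control with methylated and native let-7a. The shares of all genes were 41.0% and 49.9%. With methylated and native miR-17, 4 and 8 of the 15 were higher, against 42.1% and 51.5% of all genes. The medians of the 15 lay between -0.11 and 0.02. LSM4, part of the ring that binds the oligouridylated end, had 131.5 and 142.4 TPM with methylated and native let-7a, 166.6 and 157.3 TPM with methylated and native miR-17, and 120.2 TPM in the control, and the exonuclease XRN1 had 12.7 and 11.7 TPM with methylated and native let-7a, 9.3 and 10.7 TPM with methylated and native miR-17, and 13.1 TPM in the control. DDX19B, a helicase of mRNA export, had 23.7 and 21.3 TPM with methylated and native let-7a, 34.8 and 35.4 TPM with methylated and native miR-17, and 25.4 TPM in the control, with both miR-17 libraries highest, and SMG1, a kinase of UPF1, had 25.7 and 26.1 TPM with methylated and native let-7a, 20.2 and 24.9 TPM with methylated and native miR-17, and 26.9 TPM in the control.

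Of 19 histone chaperones, which escort histones to DNA, 14 were lower than the control with methylated let-7a and 12 with native let-7a, 11 with methylated miR-17 and 9 with native miR-17. Higher were 4 and 7 with methylated and native let-7a, against 41.0% and 49.9% of all genes. With methylated and native miR-17, 8 and 10 were higher, against 42.1% and 51.5% of all genes. The medians ran from -0.11 with methylated let-7a to 0.01 with native miR-17. Methylated let-7a was below native let-7a for 16 of them and above it for 3, while it was above for 39.8% of all genes. SUPT16H, a subunit of the FACT complex, had 92.4 TPM with methylated let-7a, 99.5 TPM with native let-7a, 84.7 TPM with methylated miR-17, 87.9 TPM with native miR-17 and 59.2 TPM in the control, lowest in the control. HAT1, which acetylates new H4, had 14.0 and 15.3 TPM with methylated and native let-7a, 21.6 and 21.2 TPM with methylated and native miR-17, and 12.9 TPM in the control, highest in the miR-17 libraries. DAXX, a chaperone of H3.3, had 75.3 and 76.0 TPM with methylated and native let-7a, 63.7 and 62.7 TPM with methylated and native miR-17, and 81.4 TPM in the control, and NAP1L1 had 168.4 and 163.6 TPM with methylated and native let-7a, 173.8 and 167.0 TPM with methylated and native miR-17, and 196.4 TPM in the control. Both were highest in the control.

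Replication-independent histones, which can also be made outside S phase and mostly from polyadenylated mRNAs, were far higher than the members. Their 12 genes summed to 3191.0 TPM with methylated let-7a, 3392.6 TPM with native let-7a, 3844.4 TPM with methylated miR-17, 3855.6 TPM with native miR-17 and 3451.6 TPM in the control. Like the sum of the members, this sum was below the control in both let-7a libraries and above it in both miR-17 libraries. H3F3B, a gene of H3.3, had 950.0 and 1018.0 TPM with methylated and native let-7a, 1243.9 and 1234.4 TPM with methylated and native miR-17, and 953.8 TPM in the control, highest in the miR-17 libraries. H1F0, a linker histone of resting cells, had 631.4 and 605.0 TPM with methylated and native let-7a, 664.1 and 712.0 TPM with methylated and native miR-17, and 782.6 TPM in the control, highest in the control. H2AFY2, a macroH2A gene, had 84.3 and 87.9 TPM with methylated and native let-7a, 108.2 and 106.8 TPM with methylated and native miR-17, and 112.2 TPM in the control, and H3F3C had 2.4 and 1.6 TPM with methylated and native let-7a, 2.5 and 0.6 TPM with methylated and native miR-17, and 0.9 TPM in the control. The median difference of the 12 from the control was -0.07 and 0.09 with methylated and native let-7a and 0.18 and 0.03 with methylated and native miR-17.

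Most S phase and DNA replication genes were higher in the miR-17 libraries, as most members were. Of 40 such genes, 30 were higher than the control with methylated miR-17 and 32 with native miR-17, with medians of 0.31 and 0.35. Among all genes, 42.1% and 51.5% were higher. With methylated let-7a 13 were higher and 25 lower, and with native let-7a 22 were higher and 17 lower, with medians of -0.09 and 0.07. The shares of all genes higher with methylated and native let-7a were 41.0% and 49.9%. No gene of the list was 2-fold apart from the control. POLA1, the catalytic subunit of the polymerase that starts DNA synthesis, had 7.4 and 7.6 TPM with methylated and native let-7a, 12.1 and 12.4 TPM with methylated and native miR-17, and 6.5 TPM in the control. RFC4, a clamp loader subunit, had 17.1 and 18.9 TPM with methylated and native let-7a, 22.8 and 20.2 TPM with methylated and native miR-17, and 12.1 TPM in the control, and WEE1, a kinase that restrains entry into mitosis, had 12.1 and 13.8 TPM with methylated and native let-7a, 9.0 and 8.9 TPM with methylated and native miR-17, and 15.6 TPM in the control. UNG, a uracil DNA glycosylase, had 78.0 and 71.2 TPM with methylated and native let-7a, 75.6 and 69.2 TPM with methylated and native miR-17, and 85.7 TPM in the control. Whether the share of cells in S phase differed between the libraries was not tested.

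**Figure D5:**
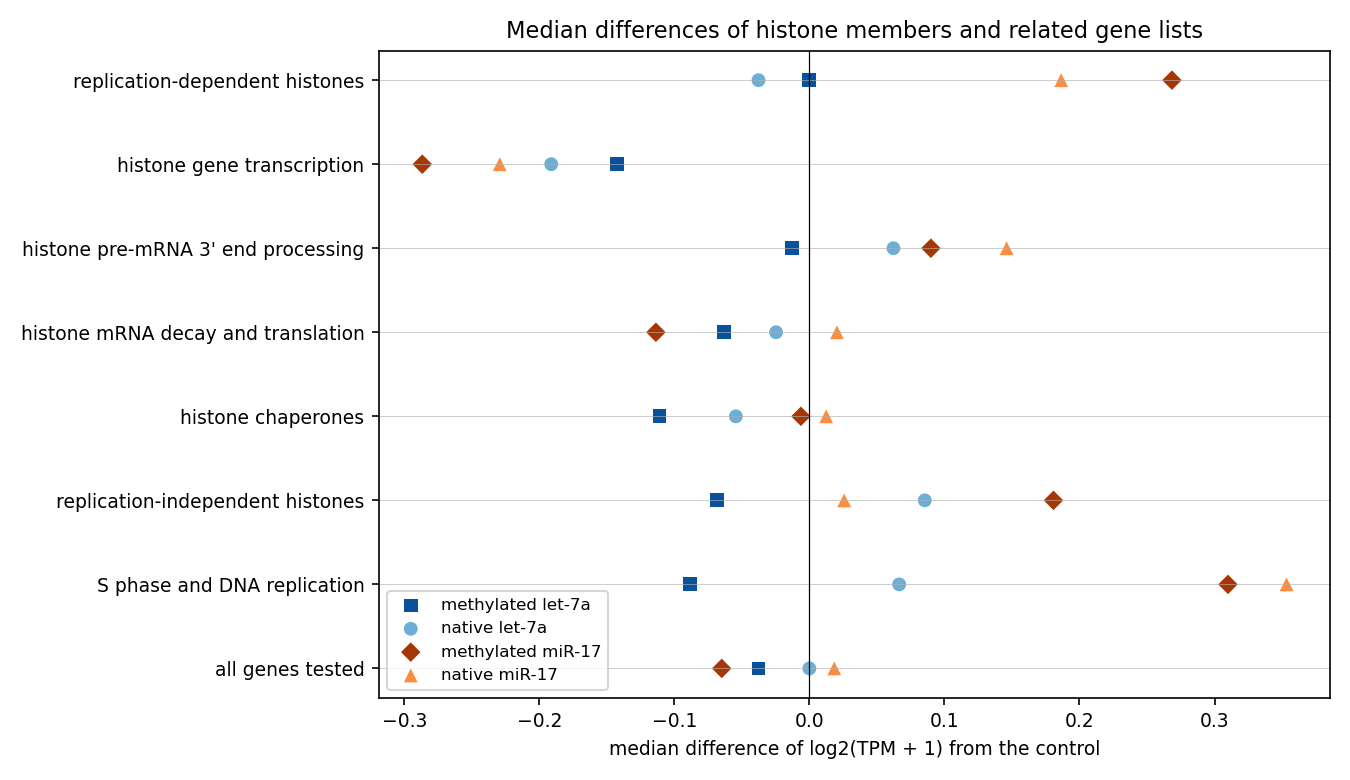
Median difference of log2(TPM + 1) from the control in the 4 microRNA libraries (markers) for the histone members, 6 related gene lists and all genes tested. Histone members, S phase genes, genes of histone 3′ end processing and replication-independent histones have medians above 0 in both miR-17 libraries. Genes of histone transcription have medians below 0 in all 4.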

How the data were processed

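For 57773 gene identifiers in 5 libraries, the authors deposited TPM values rounded to 1 decimal. Per the labels' protocols, Isogen-extracted RNA went into stranded total RNA libraries with ribosomal RNA removed. The build is hg19, per the submitters' processing notes; aligner, counter and annotation release: not given in the sources used here. Reads of near-identical genes may therefore have been divided in any way, and a gene at exactly 0 is said to be listed at 0. TPM is a share of the library, and mitochondrial transcripts took 9.36% to 12.6% of it.

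Differences of log2(TPM + 1) were computed in Python 3.11.15 with pandas 2.3.3 and numpy 2.4.6 over the 14180 genes that averaged 1 TPM or more. The computation was run on simulated data, in which control values of at least 5 TPM were multiplied by known folds without noise. That run checks the arithmetic only, and not noise between libraries, low values or shared reads. The members and gene lists were chosen with earlier results of these data known. Genes were named as the 4 highest of each class by mean TPM, the 2 highest and 2 lowest members of each comparison, and the 2 highest and 2 lowest genes of each other list by mean difference from the control, with SLBP and NPAT; others were chosen after their values were seen. Sequences, exons and coding regions came from GENCODE 29 and RefSeq (GRCh38); 76 members were found in GENCODE 29 by symbol, 39 of them with the same identifier, and 71 in RefSeq. Alternatives were other pseudocounts, filters, scalings, references and subsets of members.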

Additional observations from a re-analysis of the deposited data

Results flagged for a closer look

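Several values moved in opposite directions in the 2 microRNAs, and none of these differences was tested, since each group holds 1 library. Only the sums and the members that averaged 5 TPM or more were looked at, and each difference had to pass 0.1 (log2). Against the control, both miR-17 libraries were higher and both let-7a libraries lower by this size for 5 of them. The mean log2 difference from the control, miR-17 minus let-7a, was 0.48 for the summed TPM of all members, 0.76 for the H2B sum, 0.98 for HIST1H2BK, 0.60 for HIST1H2BD and 1.39 for HIST2H4B. These values overlap, because HIST1H2BK and HIST1H2BD are part of the H2B sum, and every one of the genes is part of the sum over all members. HIST2H4B has a near-identical copy, HIST2H4A, and the split between the 2 is uncertain.

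In 5 further sums or members, by the same limits, the methylated form differed from its native form in one direction for miR-17 and in the other for let-7a. The methylated minus native log2 difference, miR-17 minus let-7a, was 0.27 for the H2A sum, -0.33 for the H3 sum, -0.63 for the H4 sum, 0.80 for HIST3H2A and -1.03 for HIST2H2AA3. HIST3H2A and HIST2H2AA3 are part of the H2A sum, and HIST2H2AA3 also has a near-identical copy, HIST2H2AA4. Among the 9 H3 genes that share under 10% of their 50-base stretches, the H3 ratio of methylated over native form was 1.13 for miR-17 and 0.894 for let-7a, the opposite of the whole class. Among the 11 such H4 genes the ratio was 1.11 for miR-17 and 2.91 for let-7a, both above 1, but none of the 11 averaged above 1.06 TPM. Members below 5 TPM can also have opposite signs, such as HIST1H3D with -0.79 for miR-17 and 0.86 for let-7a.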

How the results depend on the processing

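No paired analysis was possible because each group holds 1 library. Under every alternative run on the sum, the ratio to the control or to the other microRNA's libraries stayed above 1 in both miR-17 libraries. In both let-7a libraries it stayed below 1. Set against the mean of the other microRNA's libraries and not the control, the ratios were 0.715 for methylated let-7a, 0.715 for native let-7a, 1.42 for methylated miR-17 and 1.37 for native miR-17. Without HIST1H2BK, an alternative chosen after seeing the data, methylated let-7a was at 0.966 times the control. No alternative left the H2B class out of the sum, so the let-7a ratio without H2B was not among them. By class, H2B alone was below the control with both methylated and native let-7a, at 0.716 and 0.705 times. With methylated let-7a the H1, H2A, H3 and H4 ratios to the control were 1.04, 0.969, 1.15 and 1.32. With native let-7a they were 0.956, 1.08, 1.05 and 0.933. The let-7a sum below the control thus rested on H2B. The H3 ratio of methylated let-7a turned to 0.881 against the miR-17 libraries, and that of methylated over native miR-17 turned to 1.13 among the 9 H3 genes sharing under 10% of their 50-base stretches. Among the low-sharing genes, methylated over native let-7a turned to 0.894 for H3 and methylated over native miR-17 to 1.11 for H4. There H3 with native let-7a over the control was at 1.67, and H4 with methylated let-7a was at 2.66 over the control and 2.91 over native let-7a. None of these H4 genes averaged above 1.06 TPM, so their ratios rest on values near 0. The H3 ratio rests mostly on HIST1H3E and HIST1H3H, with means of 10.7 and 4.02 TPM. Against the miR-17 libraries, H3 and H2A with native let-7a turned to 0.810 and 0.919 and H1 with methylated let-7a to 0.727. The cause was not tested. The difference from the control in log2 of the summed TPM, which is no median of members, was -0.19 for both methylated and native let-7a. The median member difference from the control was 0.00 and -0.04 for these libraries. Against the miR-17 libraries the median was -0.32 and -0.26. For methylated miR-17 the median was 0.16 at a pseudocount of 5. For native miR-17 it was 0.30 at a mean of at least 5 TPM, against 0.077 with no filter.

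Counts of members at least 2-fold apart depended on low values and on copies. Methylated let-7a against the control had 4, and 1 at a mean of at least 5 TPM, 0 at a pseudocount of 5, 1 among the 13 members sharing under 10% of their stretches, 8 with no filter and 8 at a pseudocount of 0.1. Native let-7a against the control had 7, with 2, 2 and 1 under the first 3 of these and 3 against the miR-17 libraries. Methylated and native miR-17 against the control had 5 each, with 2, 2 and 0 for both, and 3 for both with the 4 near-identical pairs summed, also chosen after seeing the data. Methylated against native let-7a had 6, with 2, 2 and 1. Methylated against native miR-17 had 3, with 1, 0 and 1, and 7 with no filter. Here the alternatives change which and how many genes are counted. Depth is unknown, which limits all values of a few TPM.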
